A study of Mus musculus with 200 samples.

Results

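Pla2g3 (ENSMUSG00000034579) encodes a secreted phospholipase A2, and it is 1 of the 56941 genes listed for each of 200 mouse brains. It is described here across 4 strains of mice that received a closed-head injury (CHI) or sham surgery. The gene was chosen by its difference between CHI and sham mice, so that difference is given below as a description with its standard error (SE) and with no test. The same holds for differences of that effect between strains and for sham levels between times and strains. Tests are given for the sexes, by which the gene was not chosen, and for other genes.

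Phospholipases A2 cut the fatty acid from the middle position of a membrane phospholipid, which leaves a lysophospholipid and often frees arachidonic acid. The arachidonic acid can then be turned into prostaglandins, leukotrienes and other eicosanoids, and lysophospholipids are themselves ligands of receptors or are rebuilt into phospholipids. The secreted forms need calcium and act outside the cell or at its surface. The product of Pla2g3 belongs to the group of secreted enzymes related to the bee venom enzyme, and it is known from work on mast cell maturation and on sperm maturation in the epididymis.

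The methods for surgery and collection are those stated for the C57BL/6J mice. RNA came from 1 hemisphere per mouse after perfusion with buffered saline. CHI mice received a single impact on the intact skull at the midline under isoflurane, and sham mice received the anaesthesia and the scalp incision without the impact. Mice were of both sexes (102 female, 98 male) and 3.3 to 7.67 months old, and all surgery of the C57BL/6J mice was done in the morning, so that brains taken at 9 h and at later times come from different hours of the day. In C57BL/6J, the inbred strain with no engineered allele named in the labels, 15, 14 and 14 CHI mice were collected at 9, 24 and 72 h, with 6 sham mice at each time. Mice labelled IL-1R1 gKO comprised 13, 12 and 12 CHI mice and 6 sham mice at each time. Mice labelled IL-1R1 eRestore comprised 12, 9 and 12 CHI mice with 6, 5 and 6 sham mice. Mice labelled IL-1R1 nRestore comprised 6, 8 and 6 CHI mice with 4, 5 and 5 sham mice, and those at 72 h were all male. IL-1R1 is the receptor through which interleukin-1 signals. The labels name neither the promoter nor the cell type that the Restore alleles use, and give no number of founder lines. Every sample is a separate animal, and p-values measure the spread between animals.

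Total estimated counts per mouse lay between 14857985 and 57355676 (median 20258936). Il1r1, the gene in the strain names, was not lower in those strains at the level of the whole gene. Its median was 2.01 TPM (transcripts-per-million, a level per length and depth) in 61 C57BL/6J mice, 3.95 TPM in 55 mice labelled gKO, 3.10 TPM in 50 labelled eRestore and 3.83 TPM in 34 labelled nRestore. A count over a whole gene cannot show whether the part of it that was altered is transcribed, so it checks neither the knockout nor the restoration, and the strain names below are those of the labels. The defining markers of brain cells were present, with a median summed level of 10 neuronal markers of 8477 TPM in sham mice at 9 h.

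Pla2g3 lies on chromosome 11 of GRCm39, at chr11:3438209-3449369 on the plus strand, and is annotated as protein coding with 7 transcripts, of which 4 are coding. Its 3' part overlaps Inpp5j, an inositol polyphosphate 5-phosphatase gene on the opposite strand (chr11:3444137-3455500), by 5233 bases. The end of the last exon of the coding transcripts lies in that overlap, and both transcripts marked for nonsense-mediated decay extend further into it. The lncRNA gene 8430429K09Rik ends 1076 bases before Pla2g3 begins, on the same strand. Whether the counting used strand is not given in the sources used here, so reads from the overlap of Pla2g3 and Inpp5j cannot be told apart.

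In brains of sham mice Pla2g3 was a low gene. Its mean was 1.42 TPM over the 67 sham mice, which placed it at rank 16 of 29 phospholipase A2 genes and receptor listed, a family led by Prdx6 (284 TPM, an antioxidant enzyme that also has phospholipase A2 activity) and Pafah1b1 (245 TPM, a subunit of the enzyme that inactivates platelet-activating factor in the cytosol). The estimated counts of Pla2g3 ran from 10.0 to 312 per mouse, with a median of 46.1. The counting error alone would give a coefficient of variation of 8.18% to 21.2% in a group, whereas the observed one was 11.9% to 50.9% and exceeded it in 23 of the 24 groups. The exception was the C57BL/6J sham mice at 24 h (11.9% observed, 16.8% from counting). Levels below are CPM (counts-per-million) after TMM normalisation, which corrects for depth and for a few genes that take a large share of a library.

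At 9 h after injury, every C57BL/6J CHI mouse had more Pla2g3 than every C57BL/6J sham mouse. The 15 CHI mice ranged from 4.29 to 9.00 CPM with a median of 6.26 CPM. The 6 sham mice ranged from 0.559 to 1.65 CPM with a median of 1.18 CPM. The means were 6.378 ± 1.504 CPM (SD, n = 15) and 1.15 ± 0.466 CPM (SD, n = 6), a ratio of 5.56, and the groups did not overlap. The same complete separation, CHI above sham, held for 0.955% of the 16967 genes tested in these mice. The fitted log2 fold change was 2.50 (SE 0.20) with sex and age in the fit, which placed Pla2g3 at rank 29 of 16967 genes by fold change.

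At 24 h the separation in C57BL/6J mice was still complete, at a smaller distance. The 14 CHI mice ranged from 2.85 to 4.71 CPM (median 3.73), and the 6 sham mice from 1.61 to 2.21 CPM (median 1.79). Means were 3.70 ± 0.532 CPM and 1.84 ± 0.219 CPM, a ratio of 2.01 and a log2 fold change of 1.02 (SE 0.13). Complete separation with CHI above sham was found for 0.0664% of the 16577 genes tested at this time, that is 11 genes, Pla2g3 among them. By fold change its rank was 58.

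At 72 h the C57BL/6J groups overlapped over almost their whole range. The 14 CHI mice lay between 0.905 and 2.99 CPM (median 1.59) and the 6 sham mice between 1.16 and 3.19 CPM (median 2.00). The mean was lower in CHI mice (1.70 ± 0.615 against 2.18 ± 0.750 CPM), with a log2 fold change of -0.42 (SE 0.23), and 4 of 14 CHI mice lay above the sham median. The value was -0.19 with experiment in place of age in the fit, and -0.09 within eIL-1-38, the experiment with the most of these mice (9 CHI, 3 sham). Within the others it was -0.09 in NiL-1-21 (1 and 1), -0.475 in eIL-1-56 (3 and 1) and -0.593 in nIL-1-60 (1 and 1). No CHI mouse exceeded the highest sham mouse.

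**Figure D1:**
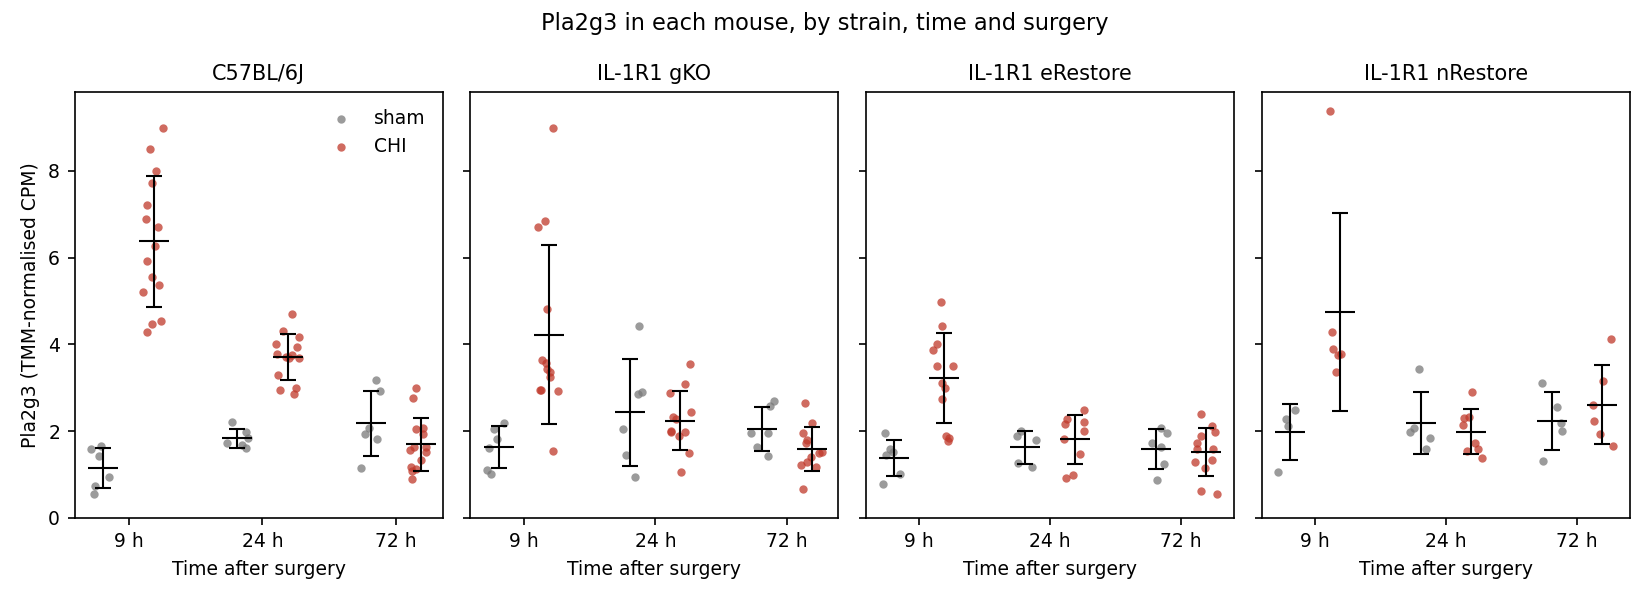
Pla2g3 in TMM-normalised CPM (y axis) for each of the 200 mice, by strain (panels), time after surgery (x axis) and surgery (grey, sham; red, CHI); points are mice, horizontal bars are means and whiskers are SDs. The mean of CHI mice stands above that of sham mice at 9 h in each panel, from 3.22 CPM in IL-1R1 eRestore to 6.38 CPM in C57BL/6J, and at 24 h every C57BL/6J CHI mouse lies above the C57BL/6J sham mice.

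In mice labelled IL-1R1 gKO, Pla2g3 was also higher after injury at 9 h, with more spread than in C57BL/6J. The 13 CHI mice ranged from 1.54 to 9.00 CPM (median 3.42) and the 6 sham mice from 1.00 to 2.18 CPM (median 1.71). A single CHI mouse, at 1.54 CPM, fell inside the sham range, and the other 12 were above it. Means of 4.23 ± 2.07 and 1.63 ± 0.488 CPM gave a ratio of 2.60, and the log2 fold change was 1.27 (SE 0.27).

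Later, the mice labelled IL-1R1 gKO showed no such excess. At 24 h the 12 CHI mice spanned 1.05 to 3.55 CPM (median 2.14), inside the sham range of 0.947 to 4.42 CPM (median 2.45, n = 6), with a log2 fold change of -0.19 (SE 0.31). The sign of that value turned to 0.16 without the sham mouse at 4.42 CPM. At 72 h the 12 CHI mice spanned 0.674 to 2.64 CPM (median 1.51) and the 6 sham mice 1.43 to 2.69 CPM (median 1.96), with a log2 fold change of -0.25 (SE 0.23), and 5 CHI mice lay below every sham mouse. It was -0.14 without the sham mouse at 2.69 CPM, -0.67 within eIL-1-38 (8 CHI, 4 sham), -0.01 within eIL-1-56 (2 and 1) and 0.70 within nIL-1-60 (1 and 1).

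In mice labelled IL-1R1 eRestore at 9 h, the 12 CHI mice ranged from 1.78 to 4.97 CPM (median 3.30) and the 6 sham mice from 0.787 to 1.95 CPM (median 1.48). All 12 CHI mice were above the sham median and 9 were above every sham mouse. The means were 3.22 ± 1.03 and 1.39 ± 0.419 CPM, a ratio of 2.32, with a log2 fold change of 1.18 (SE 0.26).

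The 9 CHI mice of this label at 24 h ranged from 0.913 to 2.48 CPM (median 1.99), and the 5 sham mice had 1.89, 1.27, 1.18, 1.79 and 2.01 CPM. These groups overlapped, with a log2 fold change of 0.04 (SE 0.29) that became -0.09 or -0.08 when either of the lower 2 sham mice was left out. At 72 h the 12 CHI mice ranged from 0.561 to 2.41 CPM (median 1.59) and the 6 sham mice from 0.865 to 2.08 CPM (median 1.68), with a log2 fold change of -0.08 (SE 0.27), or 0.00 without the highest sham mouse and -0.25 without the lowest. Within experiments it was -0.20 in eIL-1-38 (9 and 4) and 0.18 in eIL-1-56 (3 and 2).

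In mice labelled IL-1R1 nRestore at 9 h, the 6 CHI mice had 4.28, 9.38, 3.90, 3.37, 3.77 and 3.77 CPM, and the 4 sham mice had 2.12, 2.49, 1.05 and 2.29 CPM. Every CHI mouse was above every sham mouse, as was the case for 2.64% of the 16788 genes tested in these 10 mice, and 1 CHI mouse stood far above the other 5. The means were 4.75 ± 2.29 and 1.99 ± 0.642 CPM, a ratio of 2.39. The log2 fold change was 1.68 (SE 0.33) with sex and age in the fit, 1.23 without them and 1.29 without the highest CHI mouse.

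The 8 CHI mice of this label at 24 h lay between 1.38 and 2.90 CPM (median 1.93), and the 5 sham mice had 3.42, 1.60, 2.08, 1.84 and 1.98 CPM. The groups overlapped, and the log2 fold change was -0.37 (SE 0.23), -0.01 without the sham mouse at 3.42 CPM, -0.64 without the one at 1.60 CPM and -0.11 without sex and age. At 72 h the 6 CHI mice lay between 1.66 and 4.12 CPM (median 2.41), and the 5 sham mice had 2.56, 2.20, 2.00, 1.30 and 3.12 CPM. The log2 fold change was 0.19 (SE 0.27), and 0.03 to 0.35 with any 1 sham mouse left out, again with overlapping groups. The lowest of these values was without the sham mouse at 1.30 CPM, and the highest without those at 2.56 or 3.12 CPM.

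Counted over the 4 strains, 42 of 46 CHI mice at 9 h lay above every sham mouse of their own strain. At 24 h it was 18 of 43 CHI mice, 14 of them C57BL/6J, and at 72 h it was 4 of 44. In order of group means, the 4 CHI groups at 9 h and the C57BL/6J CHI group at 24 h took the 5 highest places of 24. The C57BL/6J CHI group at 9 h was the highest, at 6.38 CPM, and the C57BL/6J sham group at 9 h was the lowest, at 1.15 CPM. No step between neighbours in that order was larger than the larger of their SDs. The largest step, 1.63 CPM, lay between the C57BL/6J and the nRestore CHI mice at 9 h, against SDs of 1.504 and 2.29 CPM. In bulk tissue, more cells that express the gene and more of its RNA per cell cannot be told apart.

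**Figure D2:**
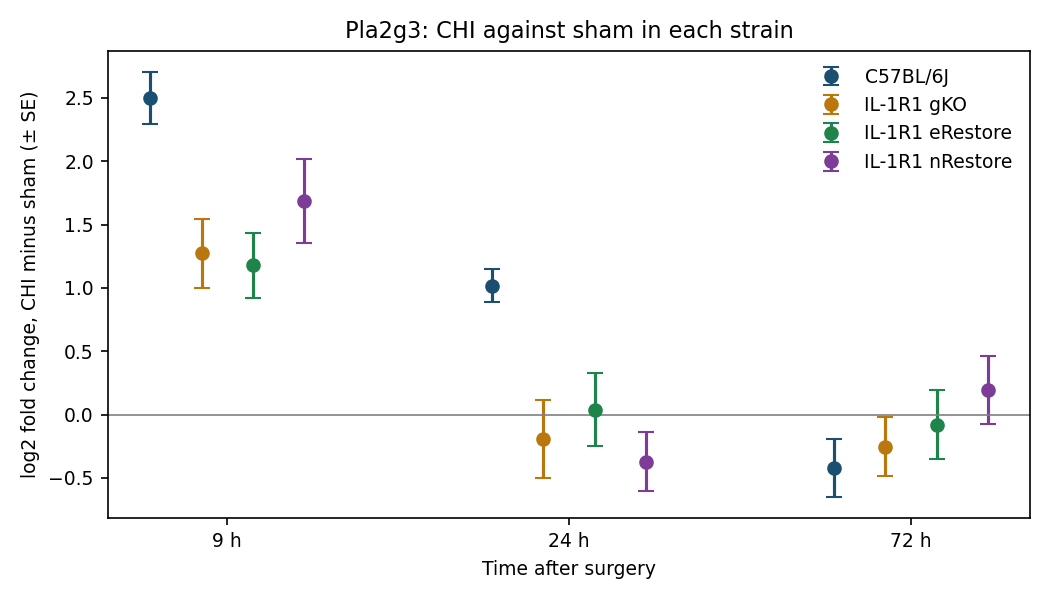
Fitted log2 fold change of Pla2g3, CHI minus sham (y axis), at each time after surgery (x axis) in the 4 strains (colours); points are estimates and whiskers are ± 1 SE. All 4 values are above 1 at 9 h, and at 24 h the C57BL/6J value of 1.02 stands apart from the other 3, which lie between -0.37 and 0.04.

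Set beside C57BL/6J, the injury difference of Pla2g3 was smaller in each of the other strains at 9 and 24 h. In fits of all strains at a time, the log2 difference between the effects at 9 h was -1.15 (SE 0.36) for gKO, -1.25 (SE 0.37) for eRestore and -1.14 (SE 0.42) for nRestore. At 24 h the corresponding values were -1.19 (SE 0.29), -0.97 (SE 0.32) and -1.22 (SE 0.31). At 72 h they were 0.00 for gKO, 0.29 (SE 0.35) for eRestore and 0.57 (SE 0.38) for nRestore. Because the gene was chosen with its values in all 4 strains known, these differences are a description, and all 3 at a time share the same C57BL/6J mice. At 9 h part of each difference lies in the sham mice, whose means were 1.15 CPM in C57BL/6J and 1.39 to 1.99 CPM in the other strains.

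The injury effects of the 3 strains labelled IL-1R1 were set beside each other without the C57BL/6J mice, as an interaction of strain and surgery fitted in edgeR (9 contrasts). They too are built from the values with which the gene was chosen and are given with no test. At 9 h, eRestore minus gKO was -0.06 (SE 0.38), nRestore minus gKO was 0.09 (SE 0.43) and nRestore minus eRestore was 0.15 (SE 0.43). Each SE is larger than its value, and these values do not show that the strains respond alike. The 2 contrasts with nRestore changed sign, to -0.21 and -0.15, without the CHI mouse at 9.38 CPM, and to -0.08 and -0.03 without the lowest nRestore sham mouse. With experiment in place of age in the fit, the 3 values at 9 h were -0.07, -0.05 and 0.01, and without sex and age they were -0.19, -0.15 and 0.04.

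The same 3 contrasts at 24 h were 0.21 (SE 0.35), -0.05 (SE 0.35) and -0.25 (SE 0.375). With any 1 sham mouse of the Restore strains left out they ranged from 0.11 to 0.33, -0.18 to 0.15 and -0.39 to -0.07, and the 0.15 and -0.07 were without the nRestore sham mouse at 3.42 CPM. At 72 h they were 0.23 (SE 0.345), 0.49 (SE 0.37) and 0.27 (SE 0.37). The last of these was 0.11 without the nRestore sham mouse at 1.30 CPM and 0.46 without the one at 2.56 CPM. None of the 3 pairs kept 1 sign over the 3 times.

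The labels give each mouse an experiment name, and Pla2g3 averaged more in CHI than in sham mice at 9 h within each experiment and strain. In C57BL/6J the difference in mean log2 CPM at 9 h was 2.71 in experiment eIL-1-76 (10 CHI, 4 sham mice) and 2.23 in eIL-1-80 (5 and 2). In mice labelled gKO it was 1.78 in TM-2-33 (6 and 2), 1.12 in eIL-1-76 (4 and 2) and 0.71 in eIL-1-80 (3 and 2). In mice labelled eRestore it was 1.08 in eIL-1-76 (8 and 3) and 1.46 in eIL-1-80 (4 and 3). The nRestore mice at 9 h all came from TM-2-33 (6 and 4), where the value was 1.23, below the 1.78 of the gKO mice in that experiment. TM-2-33 held no C57BL/6J or eRestore mice, so that strain and experiment cannot be told apart when nRestore is set beside these at 9 h.

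Within experiments shared by both strains, the C57BL/6J value at 9 h was above the gKO value in eIL-1-76 (2.71 against 1.12) and in eIL-1-80 (2.23 against 0.71). At 24 h the C57BL/6J difference was 0.93 in NiL-1-21 (5 and 1), 0.81 in NiL-1-24 (2 and 2) and 1.11 in eIL-1-38 (7 and 3). The gKO mice gave 0.13 in NiL-1-24 (2 and 4) and 0.07 in eIL-1-38 (5 and 2), the eRestore mice 0.06 in eIL-1-38 (5 and 4) and the nRestore mice -0.33 in NiL-1-24 (4 and 5). Another 5 gKO, 4 eRestore and 4 nRestore CHI mice at 24 h came from NiL-1-21, which held no sham mice of these strains. With experiment in place of age in the fit, the values at 24 h were 0.09 for gKO, 0.18 for eRestore and -0.44 for nRestore.

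The injury effect on Pla2g3 was next compared between the sexes. In C57BL/6J at 9 h, 7 female CHI mice averaged 5.96 CPM against 1.39 CPM in 3 female sham mice, and 8 male CHI mice averaged 6.75 CPM against 0.905 CPM in 3 male sham mice. Female means at 24 h were 3.66 and 1.91 CPM and male means 3.76 and 1.77 CPM. Over all strains the interaction of sex and surgery, female minus male, was -0.05 at 9 h (95% interval -0.64 to 0.55, edgeR adjusted p = 1), -0.09 at 24 h (-0.60 to 0.43, adjusted p = 0.993) and -0.07 at 72 h without the all-male nRestore mice (-0.64 to 0.49, adjusted p = 0.933). None of these passed. At 9 h the order of the sexes was not the same in every strain: the difference in mean log2 CPM was 2.11 in female and 2.98 in male C57BL/6J mice, but 1.67 in female and 0.74 in male eRestore mice.

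In sham mice, Pla2g3 was lower at 9 h than at the later times. The 22 sham mice at 9 h had 0.559 to 2.49 CPM (median 1.55), the 22 at 24 h had 0.947 to 4.42 CPM (median 1.87), and the 23 at 72 h had 0.865 to 3.19 CPM (median 1.96). With strain and sex in the fit, the log2 difference was 0.44 (SE 0.15) between 24 and 9 h, 0.44 (SE 0.15) between 72 and 9 h and 0.01 (SE 0.14) between 72 and 24 h. The sham mice at 9 h are part of the difference that chose the gene, so these values are a description with no test. Over all 18994 genes in that fit, 24.2% passed as higher at 24 h than at 9 h and 23.7% as higher at 72 h. No experiment held mice of 9 h and of a later time, the hour of collection differed, and sham mice were 3.3 to 4.8 months old at 9 h, 4.3 to 5.93 at 24 h and 4.6 to 7.67 at 72 h. Time after surgery, experiment, age and hour of the day therefore cannot be told apart in this comparison. Each CHI group was compared with sham mice of its own time.

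Sham levels of the strains, which also entered the choice of the gene, are given with no test. The means were 1.72 ± 0.663 CPM in C57BL/6J (SD, n = 18), 2.03 ± 0.844 in gKO (n = 18), 1.53 ± 0.409 in eRestore (n = 17) and 2.146 ± 0.636 in nRestore (n = 14). Against C57BL/6J, the log2 differences were 0.26 for gKO (SE 0.16), -0.12 for eRestore (SE 0.17) and 0.35 for nRestore (SE 0.17). They varied with the time: at 9, 24 and 72 h alone they were 0.53, 0.41 and -0.10 for gKO, 0.30, -0.14 and -0.46 for eRestore, and 0.82, 0.25 and 0.11 for nRestore. Female sham mice averaged 1.88 ± 0.664 CPM (n = 31) and male sham mice 1.81 ± 0.720 CPM (n = 36), a log2 difference of 0.11 (95% interval -0.13 to 0.35, edgeR adjusted p = 0.826).

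Among the phospholipases A2, a difference of this size at 9 h was not seen in the secreted relatives of Pla2g3 that could be tested. Of 11 genes listed as secreted phospholipases A2 other than Pla2g3 and their receptor, 4 passed the filter on low counts. Pla2g12a, the most abundant secreted form here at 14.89 TPM in sham mice, had a log2 fold change of 0.04 (SE 0.04, edgeR adjusted p = 0.512) in CHI against sham mice of all strains at 9 h. Pla2g5, a secreted form at 2.51 TPM, had -0.38 (SE 0.16, adjusted p = 0.0825), and Pla2g2d, at 0.311 TPM, had -0.11 (SE 0.28, adjusted p = 0.816). Pla2r1, the receptor that binds several secreted phospholipases A2, had 0.206 TPM in sham mice and fell by 0.54 (SE 0.17, adjusted p = 0.0123). Pla2g3 itself had 1.60 (SE 0.15) in that fit, given without a test. The other 7 genes of the list were near the limit of detection, with means of 0.00 to 0.179 TPM in sham mice.

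Of 17 intracellular, lysosomal and acetylhydrolase phospholipases A2, 14 were tested, 1 rose and 3 fell at 9 h over all strains. The riser was Pla2g4e, a cytosolic form known for making N-acyl-phosphatidylethanolamines, at 0.29 (SE 0.08, adjusted p = 0.0063). Pla2g4a, a cytosolic enzyme that releases arachidonic acid, fell by 0.26 (SE 0.08, adjusted p = 0.0164). The calcium-independent Pla2g6 fell by 0.14 (SE 0.04, adjusted p = 0.01) and Plaat3, a phospholipase and acyltransferase of fat cells, fell by 0.11 (SE 0.04, adjusted p = 0.0409). Over all genes tested at 9 h, 12.0% were higher and 11.9% lower in CHI mice, and the counts of this list and of the 3 below are read against those shares.

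Of 22 arachidonate enzymes, 21 were tested, 4 rose and 5 fell at 9 h. Those with the largest changes were lipoxygenases and a leukotriene enzyme. Alox12b, the lipoxygenase of the skin barrier, rose by 0.98 (SE 0.15, adjusted p = 1.17e-06), from 2.52 to 5.60 TPM, and Aloxe3, which acts after it in the skin, rose by 0.54 (SE 0.10, adjusted p = 1.95e-05). Alox12, the platelet-type enzyme, fell by 0.78 (SE 0.26, adjusted p = 0.0196), and Ltc4s, leukotriene C4 synthase, fell by 0.48 (SE 0.17, adjusted p = 0.035). Alox12 was low, with a mean of 0.41 TPM in sham mice and 0 counts in 3 mice.

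Of 14 eicosanoid receptors, 13 were listed in the data and 10 were tested, with 1 higher and 3 lower at 9 h. Ltb4r2, a leukotriene B4 receptor, rose by 0.49 (SE 0.19, adjusted p = 0.0443). It was a low gene, with a mean of 0.173 TPM in sham mice and 0 counts in 5 mice. Ptgfr, the prostaglandin F receptor, fell by 0.73 (SE 0.19, adjusted p = 0.00239), Cysltr1, a cysteinyl leukotriene receptor, by 0.36 (SE 0.14, adjusted p = 0.0484) and Ptger3, a prostaglandin E receptor, by 0.21 (SE 0.08, adjusted p = 0.0426).

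Of 20 lysophospholipid enzymes and receptors, 19 were tested, 1 rose and 4 fell at 9 h. The riser was Gpcpd1, which breaks down glycerophosphocholine (0.17, SE 0.03, adjusted p = 6.47e-05). It falls outside the rule for named genes and was named after its value was seen. Enpp2, or autotaxin, which makes lysophosphatidic acid and is abundant in choroid plexus, fell by 0.77 (SE 0.25, adjusted p = 0.0195). The lysophosphatidic acid receptors Lpar1 and Lpar4 fell by 0.43 (SE 0.06, adjusted p = 3.73e-07) and by 0.41 (SE 0.12, adjusted p = 0.00662), and Lpcat2, which rebuilds phosphatidylcholine and makes platelet-activating factor, by 0.41 (SE 0.08, adjusted p = 4.74e-05).

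Over the 5 lists, 7 of 68 tested genes were higher and 16 lower at 9 h, with a median log2 fold change of -0.022, beside -0.003 over all genes tested, of which 12.0% were higher and 11.9% lower. The lower count was 11 of 81 with no filter beyond 1 count and 11 of 52 with at least 10 counts in every mouse. The share of all genes that was lower in those fits is not given here, so these counts stand without a background. At 24 h 2 of 67 were lower, against a background of 0.854% lower and 0.627% higher. They were Pla2g7, the plasma form of platelet-activating factor acetylhydrolase (fell by 0.15, SE 0.04, adjusted p = 0.026), and Ephx2, soluble epoxide hydrolase (fell by 0.20, SE 0.05, adjusted p = 0.0236), and both were named after their values were seen. Neither passed with experiment in place of age, or without sex and age. At 72 h none of 67 passed with edgeR, against a background of 0.679% higher and 0.0272% lower. At an unadjusted p under 0.05 it was 10 of 67, beside 1374 of the 18408 genes tested. DESeq2 called 1, Lpcat2, as higher, and the share of all genes it called is not given here.

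**Figure D3:**
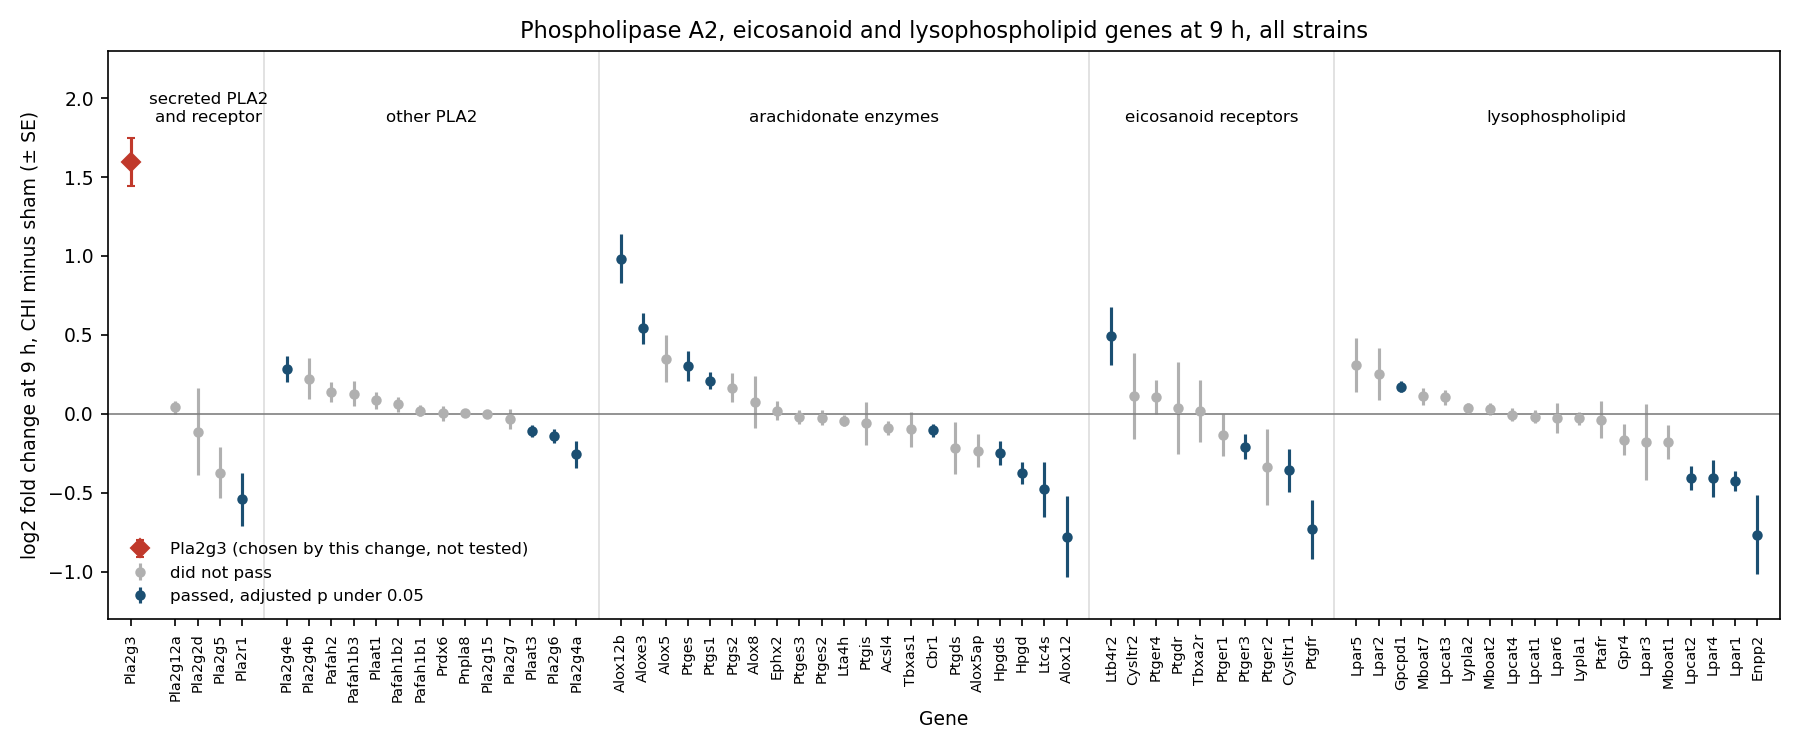
Log2 fold change at 9 h, CHI minus sham over all strains (y axis, ± 1 SE), for Pla2g3 and the 68 tested genes of the 5 lists (x axis, sorted within each list); blue genes passed at an adjusted p under 0.05, grey genes did not, and Pla2g3 (red) was not tested. Pla2g3, at 1.60, lies above the highest of the listed genes, Alox12b at 0.98.

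The group means of Pla2g3 over strain, surgery and time were most like those of Prkab2, a regulatory subunit of the AMP-activated protein kinase (Pearson r = 0.92 over 24 group means of log2(CPM + 1), rho = 0.80). The next were Wnt10b, a Wnt ligand (r = 0.91), Msr1, a macrophage scavenger receptor (0.89), Gm5532 (0.88), Tgm1, a transglutaminase (0.86), Gclc, the catalytic subunit of the enzyme that limits glutathione synthesis (0.86), Gm49339 (0.85), Slc10a6, an organic anion transporter (0.85), Rcc1, the exchange factor of Ran (0.85), and Ttc39c (0.85). Over all 20111 genes compared, the median r was -0.01 and 1% of genes exceeded 0.71. Because the pattern of Pla2g3 is led by the CHI mice at 9 h, genes picked for likeness to it are picked for a difference there, and their log2 fold changes at 9 h, from 0.25 (Rcc1, SE 0.05) to 4.10 (Slc10a6, SE 0.65), are given with no test.

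That likeness rests in part on the 4 CHI groups at 9 h. Over the other 20 groups, r was 0.74 for Prkab2, 0.67 for Wnt10b, 0.62 for Msr1 and 0.44 to 0.59 for the remaining 7. The groups share experiments and strains and are not independent, so no p is given. Msr1, Gm5532, Tgm1, Gm49339 and Slc10a6 averaged under 1 CPM, where counting error is large. With ranks in place of values, 2 of the 10 stayed among the 10 most similar genes.

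**Figure D4:**
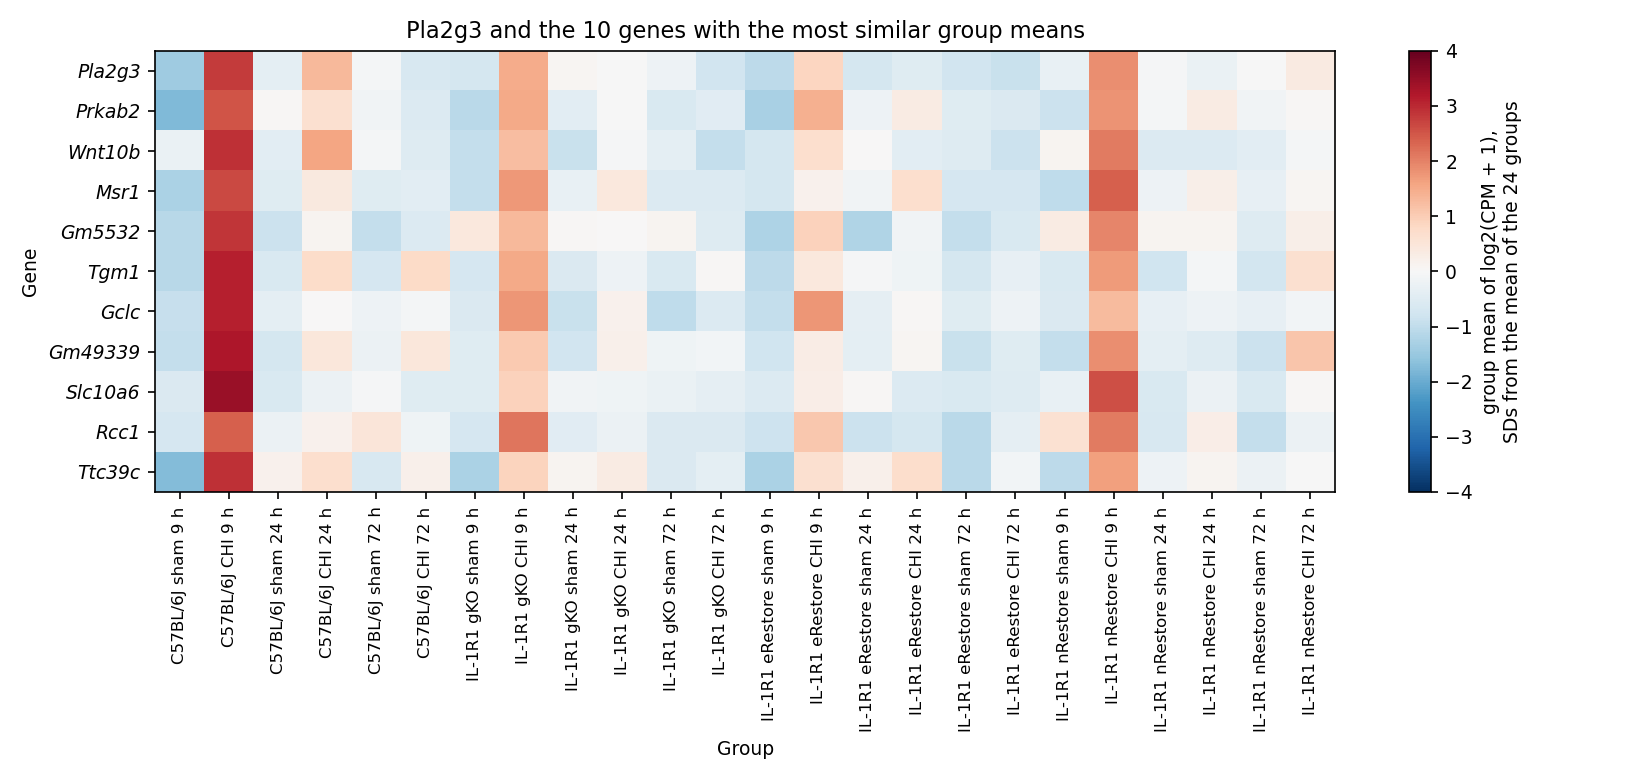
Group means of log2(CPM + 1) for Pla2g3 and the 10 genes with the most similar means (rows) in the 24 groups (columns), each gene shown in SDs from its mean over the groups (colour). The column of C57BL/6J CHI mice at 9 h holds the highest value of every row, and the columns of the other CHI groups at 9 h are mostly above the mean.

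Among mice of the same group, the genes that varied with Pla2g3 were others. After each group mean was subtracted, the highest r over the 200 mice was 0.53, for Plin4, a coat protein of lipid droplets (rho = 0.52), followed by Akap8l (0.52), Smpd4, a sphingomyelinase (0.52), Col5a3, a collagen V chain (0.52), and Srsf5, a splicing factor (0.52). Akap8, Slc35b3, Fubp3, Rreb1 and Clasrp followed at 0.51. Over all 20111 genes compared in this way, the median r was 0.03 and 1% of genes exceeded 0.405. The lowest r was -0.55, further from 0 than the highest. These r values are modest for a gene with a median of 46.1 counts, and the labels do not say which mice shared a library preparation. Within groups, the log2 total count of a library had r = -0.15 with Pla2g3, and -0.09 to -0.28 with these 10 genes. Plin4 and Col5a3 rose at 9 h over all strains (1.91, SE 0.20, adjusted p = 5.20e-11, and 1.19, SE 0.21, adjusted p = 1.24e-05), and the other 8 did not pass, where 12.0% of all genes were higher.

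The neighbouring genes, chosen by position, did not move up with Pla2g3. Inpp5j, the overlapping gene, had 22.3 TPM in C57BL/6J mice on average, and its log2 fold change at 9 h was -0.07 (SE 0.07) in C57BL/6J and between -0.20 and -0.16 in the other strains. Over all strains it fell by 0.16 at 9 h (SE 0.04, edgeR adjusted p = 3.56e-04), the direction opposite to that of Pla2g3. 8430429K09Rik, the lncRNA upstream, had -0.04 (SE 0.13) in C57BL/6J -0.42 (SE 0.19) in nRestore and -0.14 over all strains (SE 0.07, adjusted p = 0.14).

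Genes in several lists of cell type markers also passed at 9 h, where 12.0% of all genes were higher and 11.9% lower, and their part in the difference of Pla2g3 was not tested. Of 10 choroid plexus markers, 9 fell over all strains, with a median log2 fold change of -1.57. Their summed level ranged from 12.4 to 6408 TPM in sham mice (median 53.3) and from 8.04 to 2573 TPM in CHI mice (median 30.3). Of 10 microglial markers, 6 fell, with sums of 296 to 579 TPM in sham mice and 233 to 524 TPM in CHI mice. Of 10 oligodendrocyte markers, 2 fell (sums of 2987 to 7294 and 2743 to 7208 TPM). Of the astrocyte markers 3 rose and none fell, with 5 of 10 at an unadjusted p under 0.05 beside 6423 of the 18741 genes tested, and their sums were 2220 to 2793 TPM in sham mice and 2177 to 2742 TPM in CHI mice. Endothelial markers had 3 higher and 2 lower (210 to 418 and 220 to 477 TPM), markers of pericytes and fibroblasts 3 higher and 2 lower (126.3 to 239 and 124 to 223 TPM), and neuronal markers 2 higher and 1 lower (7732 to 9797 and 6789 to 11000 TPM).

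Markers that define mast cells, a known source of this enzyme, were near 0. Of 10 mast cell markers, 8 did not pass the filter, and Cpa3, Mcpt4, Tpsb2, Tpsab1, Cma1, Ms4a2, Fcer1a and Mrgprb1 averaged at most 0.0797 TPM in CHI and 0.0791 TPM in sham mice at 9 h, each at 0 counts in most of the 200 mice. The highest in CHI mice was Tpsb2, a tryptase, at 0.0797 against 0.0122 TPM in sham mice, and Ms4a2 (0.0131 TPM) and Tpsab1 (0.00948 TPM) were at 0 in sham mice at 9 h. The summed level of the list, 14.8 to 22.7 TPM in sham and 11.5 to 26.0 TPM in CHI mice at 9 h, came mainly from Kit (16.8 TPM over all sham mice) and Hdc (1.59 TPM), which neurons also express. Kit fell by 0.23 (SE 0.05, edgeR adjusted p = 6.16e-04), and Hdc had -0.08 (SE 0.20, adjusted p = 0.831). Of 10 markers of neutrophils and monocytes 2 were tested and neither passed with edgeR, even unadjusted, and their sums were 0.336 to 3.13 TPM in sham and 0.386 to 68.1 TPM in CHI mice at 9 h, with medians of 1.29 and 1.61 TPM.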

How the data were processed

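Bulk RNA-seq of 1 hemisphere was analysed in 200 mice of 24 groups by strain, surgery and time. The authors made poly(A) libraries, aligned paired reads to GRCm39 with STAR and quantified them with Salmon (version not given in the sources used here, like the annotation release and strandedness). The authors deposited estimated counts per gene (expected counts, not normalised) and TPM (per length and library). Counts were rounded. Intervals reflect the spread between mice, counting error included, and PCR copies were not told apart. Genes reaching 10 counts in a number of mice equal to the size of the smallest group were fitted with edgeR 4.0.16 in R 4.3.3 (TMM, quasi-likelihood F test, robust, SE from the F statistic), with sex and age as covariates, or strain, sex or time for sham mice. P-values were adjusted over all genes tested (Benjamini-Hochberg, threshold 0.05), and none is printed for Pla2g3 between surgeries, strains or times, which entered its choice. Coordinates are from GENCODE vM39. Alternatives included DESeq2 1.42.0, and code was tested on simulated data.

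The gene and all lists (5 of pathway genes, 9 of markers) were chosen with earlier results of these data known. The rule for named genes took Pla2g3, tested secreted phospholipases A2, at most 4 passing genes per pathway list at 9 h by absolute log2 fold change, the 10 most similar genes under each of 2 measures, and Il1r1. No promoter or protein sequence of Pla2g3 was used here.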

Additional observations from a re-analysis of the deposited data

Results flagged for a closer look

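Pla2g3 was examined for mice that stand apart in the 16 groups of 4 to 10 mice, with a limit that chance passes in about 1 in 20 groups, and 2 mice passed it. In IL-1R1 nRestore CHI mice at 9 h, 1 mouse had 9.38 CPM and the nearest of the other 5 had 4.28 CPM, so that this gap took 0.849 of the range of the group. In IL-1R1 nRestore sham mice at 24 h, 1 mouse had 3.42 CPM and the nearest of the other 4 had 2.08 CPM, a gap of 0.737 of the range. The total estimated counts of these 2 mice were 19264055 and 16183356, the lowest in their groups; the part of depth in these values was not tested.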

How the results depend on the processing

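No paired analysis was possible because replicate numbers were given only in accession order and mark no shared animal. Of the alternative values of the difference between CHI and sham mice in Pla2g3, 190 moved by less than 1 SD of log2 CPM between mice. The remaining 3 were 0.81 in C57BL/6J at 24 h within experiment NiL-1-24 (2 CHI, 2 sham mice), 0.70 in gKO at 72 h within nIL-1-60 (1 and 1) and 1.12 in nRestore at 9 h on log2(TPM + 0.1), which carries no covariates. The tested differences in Pla2g3 between the sexes passed under no alternative run. Leaving out any 1 CHI mouse of nRestore at 9 h, added after seeing the data, gave 1.29 to 1.86. The count of listed genes lower at 24 h was 0 without sex and age and 0 with experiment in place of age, and the count higher at 72 h was 1 with DESeq2 under either kind of size factor; the cause was not tested. On log2(TPM + 0.1), 6 of the 10 genes most similar in group means stayed among the first 10, and 4 of the 10 within groups, where ranks kept 7. The depth limits Pla2g3 to a median of 46.1 counts per mouse, and the SEs of the differences in injury effect between IL-1R1 strains were 0.345 to 0.431.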
